A study of Homo sapiens with 5 samples.

Results

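Integrins and cadherins, the adhesion receptors by which cells hold on to matrix and to each other, were examined in HEK293T cells given ascorbic acid and in untreated controls. The members were the rows of the count table whose symbols name an integrin alpha or beta subunit or a numbered cadherin, with at least 20 counts over the 5 libraries. Of 48 such rows in a table of 28278 genes, 30 met the count and 18 did not. The 30 were 14 alpha subunits, 5 beta subunits, 5 type I cadherins, 4 type II cadherins and 2 further cadherins, CDH23 and CDH26, which do not belong to the classical types.

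The treated group was 2 libraries of HEK293T, an established line from human embryonic kidney, given ascorbic acid (vitamin C), and the control group was 3 libraries of untreated wild-type HEK293T cells. Cells grew for 24 h after seeding. Exposure lasted 24 h where DNA methylation was to be tested and 36 h where RNA methylation was, in medium renewed every 6 h, and the labels give no dose and do not tie these libraries to either time. The libraries were made from messenger RNA and held 41739602 to 48015766 counts in the treated group and 35106664 to 57212071 in the control group. Whether each library is a culture of its own is not in the labels, so p-values rest on library-to-library spread that may be technical, and in bulk RNA a change in the share of cells and a change of RNA per cell cannot be told apart. Of 14 markers of embryonic kidney and of HEK293 cells, 12 had enough counts to be tested, among them SALL1, EYA1 and NEFM. In every library 4 of the 14 were below 1 CPM (counts scaled to a common library size). PAX8, among these, had 0 to 4 counts in every library. Of the 12 tested, 2 were called higher with ascorbic acid, 2 lower, EYA1 among them, and 8 were not called (edgeR adjusted p under 0.05). Thus 33.3% of these markers were called, where 14.3% of all genes tested were. Even values made up 71.3 to 75.9% of all counts between 1 and 10, a pattern given by pairs whose mates are counted separately.

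An integrin is a heterodimer of an alpha and a beta subunit that spans the membrane, binds matrix proteins or cell surface ligands outside and is linked to actin inside through talin, kindlin and further adaptors. The alpha subunit sets most of the ligand preference, and ITGB1 encodes the beta subunit with the most alpha partners. Classical cadherins bind like cadherins on neighbouring cells in a calcium-dependent way and are anchored to actin through the catenins. Type I cadherins include E-cadherin (CDH1), N-cadherin (CDH2) and P-cadherin (CDH3), and type II cadherins are known mainly from the nervous system and mesenchyme.

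Of 29 members tested, 4 rose with ascorbic acid and 0 fell (edgeR quasi-likelihood test, Benjamini-Hochberg adjusted p under 0.05 over 15271 genes), where 14.3% of all genes tested were called, 8.53% higher and 5.76% lower (1303 and 879 genes, against 1712 and 389 with library totals and 806 and 906 with DESeq2). The members' share of 13.8% was therefore near that of all genes. At an unadjusted p under 0.05, 11 members were higher and 1 was lower (15.3% and 12.7% of all genes tested), and DESeq2 called 2 higher and 0 lower. The members that rose were the alpha subunit gene ITGA4 and the cadherin genes CDH3, CDH24 and CDH23. The median log2 fold change was 0.14 over the 29 members and 0.00 over all genes tested. Both treated libraries lay above all controls in 15 members and below them in 6, and the groups overlapped in 8. Over all genes tested, these shares were 22.6% above and 20.4% below.

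**Figure D1:**
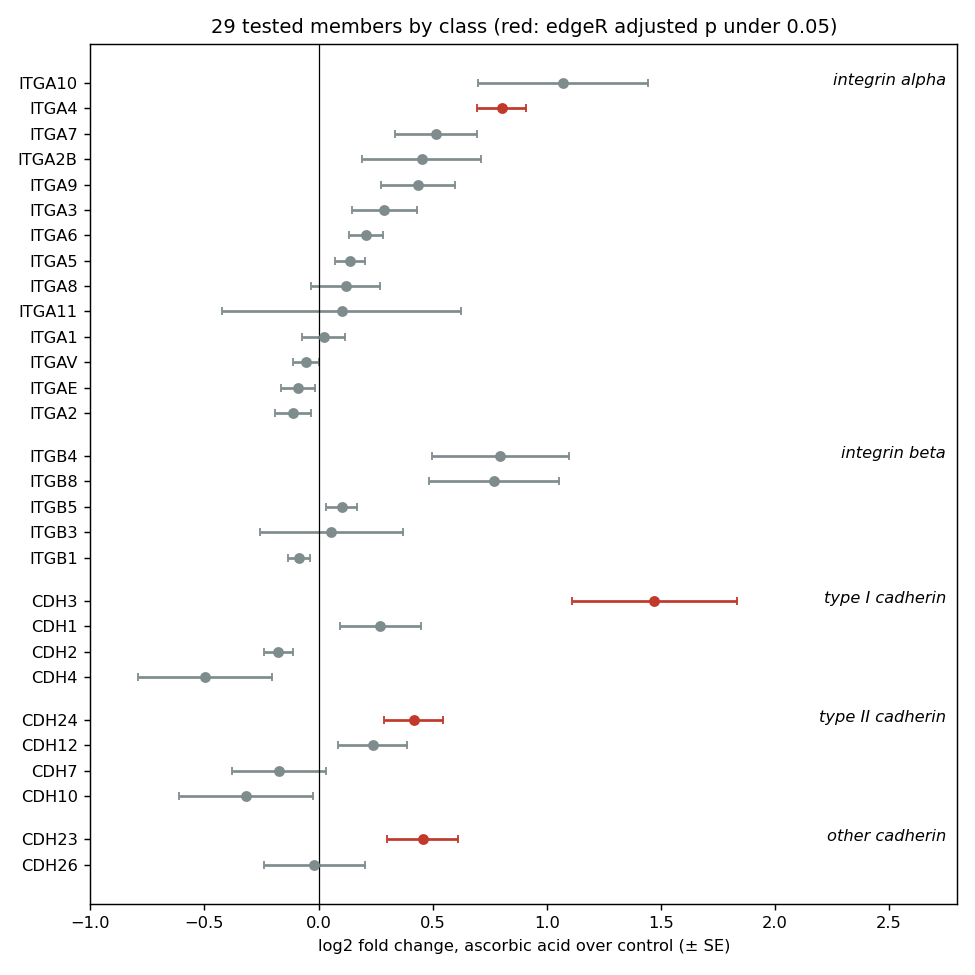
Log2 fold change, ascorbic acid over control, with its standard error (x axis) for the 29 tested members (y axis), grouped by class. The 4 called members are red, and the 25 others, which lie between -0.50 and 1.07, are grey.

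ITGA4 encodes an alpha subunit that pairs with ITGB1 or ITGB7 and binds fibronectin and VCAM1. The gene lies on chromosome 2, 181457202 to 181536187 on the plus strand (GENCODE release 29, GRCh38). It had 543 and 418 counts in the treated libraries, against 334, 232 and 209 in the controls. Scaled to a common library size with TMM factors (CPM), these were 11.2 and 9.77 with ascorbic acid, against 5.93, 6.11 and 6.04 in the controls. Both treated libraries were high and the groups did not overlap. The mean was 10.5 ± 1.004 CPM (SD, n = 2) with ascorbic acid and 6.03 ± 0.0867 CPM (SD, n = 3) in controls, a 1.74-fold increase (log2 fold change 0.80 ± 0.11 SE, edgeR adjusted p = 5.70e-06). ITGA4 was called in all 18 alternative fits, with log2 fold changes of 0.70 to 0.89 and adjusted p up to 0.00136, and it was 1 of 2 members called in a test against a fold of 1.2, which called 1.80% of all genes higher.

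The promoter windows of ITGA4, of CDH23 and of CDH2 are shown because the treatment acts on dioxygenases that oxidise methylated cytosine in CG dinucleotides, so the CG content at the start of members that rose and of the main cadherin that was not called is of interest. DNA methylation was not measured in these libraries. Each window holds 250 bases before and 50 after the start site (RefSeq, GRCh38.p14), read 5′ to 3′ on the gene's strand with each CG in capitals. They are chr2:181457136-181457435 (plus strand), chr10:71396670-71396969 (plus strand) and chr18:28177081-28177380 (minus strand), and for CDH23 and CDH2, which have several windows, the window with the most CG is given.
ITGA4: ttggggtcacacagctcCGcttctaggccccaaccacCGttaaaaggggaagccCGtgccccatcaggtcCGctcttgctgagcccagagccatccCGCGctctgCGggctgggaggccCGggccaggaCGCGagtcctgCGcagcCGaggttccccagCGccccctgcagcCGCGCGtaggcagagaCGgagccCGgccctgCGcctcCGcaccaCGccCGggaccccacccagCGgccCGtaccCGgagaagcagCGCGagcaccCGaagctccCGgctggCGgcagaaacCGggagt
CDH23: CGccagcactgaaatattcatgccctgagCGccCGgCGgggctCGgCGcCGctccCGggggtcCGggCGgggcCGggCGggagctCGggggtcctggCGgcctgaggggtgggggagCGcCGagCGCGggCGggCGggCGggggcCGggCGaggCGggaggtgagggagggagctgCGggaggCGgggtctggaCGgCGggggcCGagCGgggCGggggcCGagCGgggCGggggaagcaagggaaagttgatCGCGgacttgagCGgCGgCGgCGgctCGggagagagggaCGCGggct
CDH2: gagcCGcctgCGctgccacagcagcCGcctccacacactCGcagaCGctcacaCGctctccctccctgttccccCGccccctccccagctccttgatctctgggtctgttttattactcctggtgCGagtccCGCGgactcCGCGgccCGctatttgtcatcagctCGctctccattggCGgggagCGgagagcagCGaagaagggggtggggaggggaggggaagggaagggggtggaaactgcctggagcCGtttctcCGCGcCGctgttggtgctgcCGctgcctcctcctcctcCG
The ITGA4 window held 31 CG, the CDH23 window 43 and the CDH2 window 23, where the median was 25 over the 16828 windows of genes tested. That median is over all windows, not over the richest window of each gene. The other CDH23 windows held 5 and 1 CG and the other CDH2 window 4, and which start these cells use is not known. Members not called had windows on both sides of the median, from CDH7 (41) and ITGB1 (39) to ITGA10 (2) and ITGA2B (2). Windows were found for 21 of 30 members, 34 windows in all, with 1 to 43 CG and a median of 12.5. The E-box CACCTG, a sequence bound by SNAI and ZEB repressors, was searched on both strands and was present in 5 of these 34 windows (14.7%), in 18.5% of the windows of genes tested and in 20.6% of all 35116 windows. Matches are a description of these windows only. No window was found for 9 members, among them CDH3, CDH24 and CDH1, so the called genes CDH3 and CDH24 were not examined for CG or E-boxes.

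The other alpha subunits did not pass. Collagen receptors are formed by ITGA1, ITGA2, ITGA10 and ITGA11 with ITGB1. ITGA2 had 16.8 and 18.004 CPM in treated libraries, against 18.2, 18.6 and 19.8 CPM in controls (log2 fold change -0.11 ± 0.08), and ITGA1 had 0.02 ± 0.10. ITGA10, the collagen receptor gene of cartilage, had 36 and 39 counts with ascorbic acid, against 20, 12 and 18 in controls, without overlap (1.07 ± 0.37, edgeR adjusted p = 0.0518). That adjusted p lay just past the threshold, and ITGA10 was called in 5 of 16 alternatives that gave it a value. ITGA11 had 4 to 21 counts in each library and 0.10 ± 0.53.

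Laminin receptors are formed by ITGA3, ITGA6 and ITGA7. ITGA6 had 24.1 and 22.1 CPM in treated libraries, against 19.7, 19.6 and 20.7 CPM in controls, and ITGA7 had 3.05 and 2.85 CPM, against 2.06, 1.92 and 2.22 CPM in controls. In both genes the treated libraries were the highest, but neither passed (ITGA6 0.21 ± 0.08, edgeR adjusted p = 0.0614, and ITGA7 0.52 ± 0.18, 0.0519). ITGA3 had 0.29 ± 0.14 (adjusted p = 0.182). ITGA9, whose product binds tenascin and osteopontin, had 3.85 and 3.65 CPM with ascorbic acid and 2.49, 2.74 and 3.18 CPM in controls (0.44 ± 0.16, edgeR adjusted p = 0.0669). ITGA6, ITGA7 and ITGA9 were each called in 4 alternatives, among them scaling by library totals.

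Receptors for the RGD motif of fibronectin and vitronectin use ITGA5, ITGA8 and ITGAV. ITGA5, the main fibronectin receptor subunit, averaged 33.3 ± 0.308 CPM with ascorbic acid and 30.2 ± 1.28 CPM in controls, a log2 fold change of 0.14 ± 0.07 that did not pass (edgeR adjusted p = 0.175). ITGAV had 64.1 and 74.6 CPM in treated libraries, against 73.4, 71.5 and 70.9 CPM in controls. The treated libraries of ITGAV lay on either side of the controls (-0.05 ± 0.06). ITGA8, the nephronectin receptor subunit of kidney mesenchyme, had 0.12 ± 0.15. ITGAE, a subunit of lymphocytes whose product binds E-cadherin on other cells, had -0.09 ± 0.07. ITGA2B, the platelet fibrinogen receptor subunit, had 1.53 and 1.24 CPM against 0.959, 1.05 and 1.04 CPM in controls (0.45 ± 0.26).

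No beta subunit passed in edgeR, where 2 of 5 were higher at an unadjusted p under 0.05 (15.3% of all genes) and 0 were lower (12.7%), and DESeq2 also called 0. ITGB1, the common partner of most alpha subunits, had 124 and 130 CPM in treated libraries, against 131, 137 and 136 CPM in controls (-0.09 ± 0.05, edgeR adjusted p = 0.252). ITGB5, a partner of ITGAV for vitronectin, had 31.8 and 30.6 CPM against 28.8, 30.6 and 27.99 CPM in controls (0.10 ± 0.07). ITGB4, the hemidesmosome subunit that pairs with ITGA6, had 60 and 48 counts with ascorbic acid, against 30, 26 and 30 in controls (0.80 ± 0.30, adjusted p = 0.0737). ITGB8, which pairs with ITGAV and activates latent TGF-beta, had 65 and 51 counts with ascorbic acid, against 38, 27 and 30 in controls (0.77 ± 0.28, adjusted p = 0.0658). The treated CPM of ITGB4 and ITGB8 lay above all controls, at 1.12 to 1.34 CPM against 0.533 to 0.867 CPM in controls. ITGB3 had 0.06 ± 0.31, and 51.6% of its exon length is shared with another annotated gene on the same strand (AC068234.1), so its value is uncertain.

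Among the cadherins, CDH3 had the largest fold change of any member. It encodes P-cadherin and lies on chromosome 16, 68636189 to 68722616 on the plus strand, 14609 bases before CDH1. CDH3 had 51 and 49 counts with ascorbic acid, against 32, 8 and 12 in controls, or 1.05 and 1.15 CPM against 0.568, 0.211 and 0.347 CPM. Control 1 was the highest of the controls, and the groups did not overlap. The fold change was 2.77 (log2 1.47 ± 0.36, edgeR adjusted p = 0.00604). The call ended without ascorbic acid replicate 2 (1.41, adjusted p = 0.0509) and held in the other 16 alternatives that gave a value. An annotated antisense gene covers 11.1% of the CDH3 exon length, and low counts of mates counted separately carry more counting error than the numbers show.

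CDH1, the neighbour of CDH3, had 3.09 and 2.62 CPM in treated libraries, against 2.56, 2.26 and 2.25 CPM in controls (0.27 ± 0.18, edgeR adjusted p = 0.332). The ratio of CDH3 to CDH1, each per kilobase of exon, was 0.337 and 0.433 with ascorbic acid, against 0.220, 0.0921 and 0.152 in controls. The ratios did not overlap, with p = 0.2 in a two-sided exact permutation test, the smallest that 2 against 3 libraries can give. CDH2, N-cadherin, was the most abundant cadherin transcript. It had 38.7 and 36.5 CPM with ascorbic acid, against 43.9, 41.5 and 42.0 CPM in controls, without overlap (-0.18 ± 0.06, edgeR adjusted p = 0.0568). CDH2 was called lower with DESeq2's size factors (-0.18, adjusted p = 0.0482) and with GC and length trends removed (-0.15, 0.0421), and in none of the other 16 alternatives. CDH4, R-cadherin, had 0.763 and 0.725 CPM against 1.01, 1.05 and 1.098 CPM in controls (-0.50 ± 0.29, adjusted p = 0.277). CDH15, M-cadherin of muscle, was too low to test, with 9 and 8 counts in treated libraries and 2, 2 and 4 in controls.

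CDH24, a type II cadherin gene on chromosome 14 (23047062 to 23057538, minus strand), had 365 and 286 counts with ascorbic acid, against 261, 232 and 186 in controls. These were 7.52 and 6.69 CPM against 4.64, 6.11 and 5.37 CPM in controls. The lower treated library was close to the highest control, and the log2 fold change was 0.42 ± 0.13 (edgeR adjusted p = 0.0272). The CDH24 call held in 12 of 18 alternatives. It ended without ascorbic acid replicate 1 (0.33, adjusted p = 0.223), without control replicate 1 (0.31, 0.157), with DESeq2 (0.40, 0.101), with cyclic loess scaling (0.31, 0.137) and against a fold of 1.2 (0.580). The other type II genes, all known from brain, did not pass. CDH12 had 4.23 and 4.72 CPM with ascorbic acid, against 3.73, 3.24 and 4.45 CPM in controls (0.24 ± 0.15). CDH7 (-0.17 ± 0.21) and CDH10 (-0.32 ± 0.29) had both treated libraries below all controls without passing.

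CDH23, the tip-link cadherin gene of hair cells, lies on chromosome 10 (71396934 to 71815947, plus strand). It had 3.73 and 4.04 CPM with ascorbic acid, against 2.77, 2.76 and 2.98 CPM in controls. The groups did not overlap, and the log2 fold change was 0.46 ± 0.15 (edgeR adjusted p = 0.0454). The call was near the threshold. It held in 7 of 17 alternatives and ended with DESeq2 (0.45, adjusted p = 0.154), without either treated library, and without control 1 or control 2. In those leave-outs the log2 fold change was 0.39 to 0.51 and the highest adjusted p 0.230. C10orf105, on the opposite strand, overlaps 18.9% of the CDH23 exon length and had 10 and 4 counts with ascorbic acid, against 2 in each control. CDH26, a cadherin of epithelia, had 1.42 and 1.92 CPM in treated libraries and 1.51 to 1.82 CPM in controls (-0.02 ± 0.22).

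**Figure D2:**
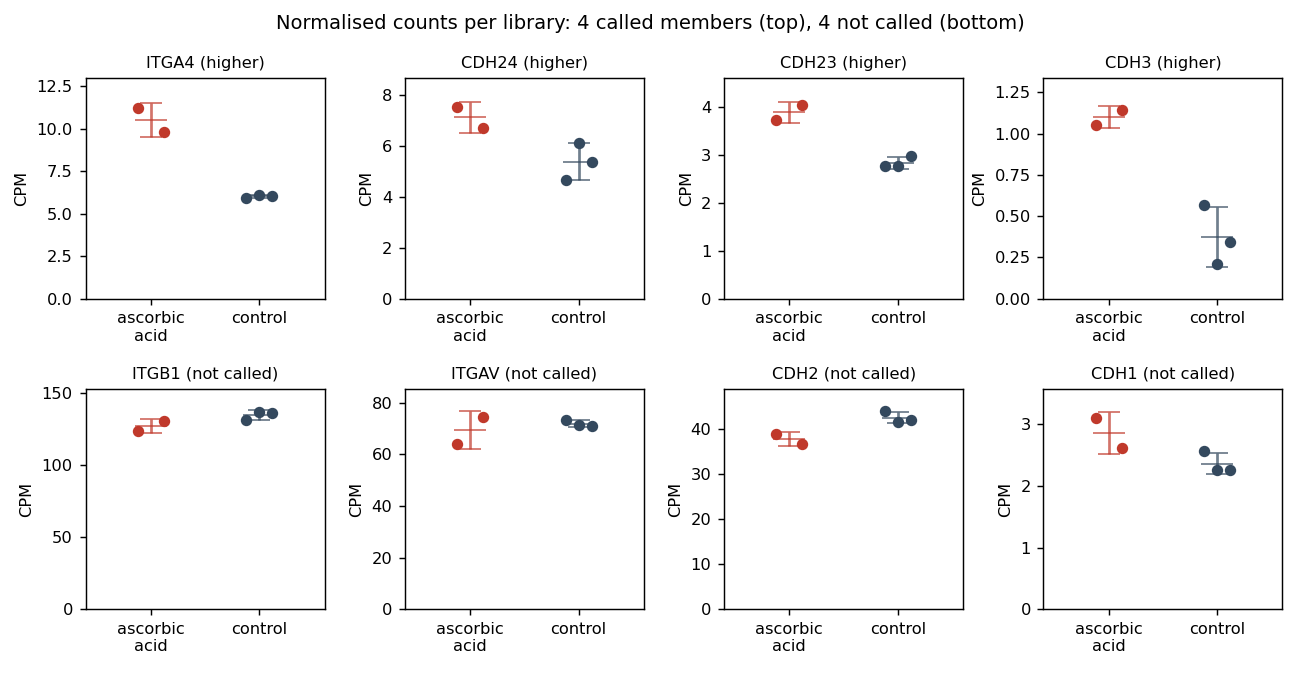
Normalised counts (CPM, y axis from 0) in each library of the 2 groups (x axis) for the 4 called members and for ITGB1, ITGAV, CDH2 and CDH1, with the mean and SD. ITGA4 lies at 9.77 to 11.2 CPM in treated libraries against 5.93 to 6.11 CPM in controls, while ITGAV overlaps.

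The direction of a member's value went with its level. The 8 tested members below 1 CPM on average had a median log2 fold change of 0.44 (0.21 over the 2402 genes in that range), and the 10 members from 1 to 5 CPM had 0.28 (0.15 over 2284 genes). The 4 members from 5 to 20 CPM had 0.22 (0.05 over 2810 genes), and the 7 members at 20 CPM and above had -0.05 (-0.04 over 7775 genes). Genes of low level thus had the higher median in the table as a whole, and the part of this trend in the members' values was not tested. With the trend removed by cyclic loess scaling, ITGA4 and CDH3 were called and CDH24 and CDH23 were not.

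**Figure D3:**
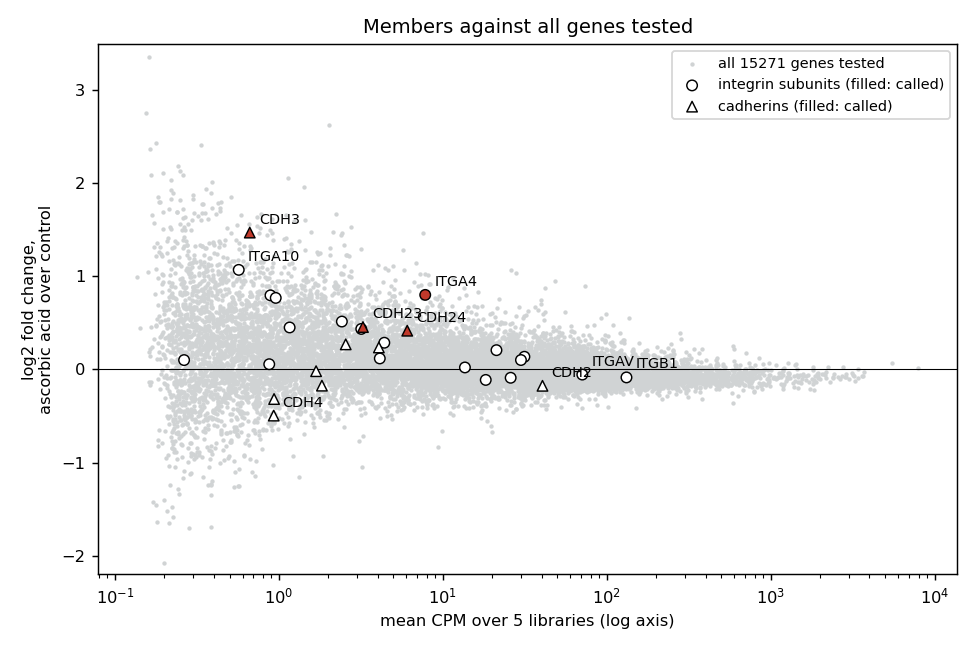
Log2 fold change, ascorbic acid over control (y axis), against mean CPM over the 5 libraries (log x axis) for all 15271 genes tested (grey), integrin subunits (circles) and cadherins (triangles), filled red where called. The 7 members at 20 CPM and above lie near 0, and the called members average 10.5 CPM or less in either group.

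The make-up of the alpha, beta and cadherin RNA totals was asked from CPM per kilobase of exon, which allows genes to be compared. Each total counts every member of its class, and these levels do not show which subunits pair in receptors. In treated libraries ITGB1 had 21.2 ± 0.779, ITGAV 8.45 ± 0.904 and CDH2 7.60 ± 0.316 (SD, n = 2 each). In controls ITGB1 had 22.4 ± 0.546, ITGAV 8.76 ± 0.154 and CDH2 8.58 ± 0.261 (SD, n = 3 each). Within the controls ITGAV and CDH2 were close, with ITGAV the higher in each library (8.93, 8.71 and 8.64, against 8.87, 8.38 and 8.48 for CDH2). ITGA5 (3.99 ± 0.169) and ITGAE (3.98 ± 0.286) differed there by less than their spread. The levels of the 14 alpha subunits summed to 26.8 ± 0.568 with ascorbic acid and 25.5 ± 0.539 in controls, and those of the 5 beta subunits to 26.5 ± 0.608 with ascorbic acid and 27.3 ± 0.594 in controls. Alpha and beta totals were of like size in both groups. Their ratio, alpha over beta, was 1.014 and 1.012 with ascorbic acid, against 0.981, 0.910 and 0.917 in controls. The ratios did not overlap, with p = 0.2 in a two-sided exact permutation test, the smallest that 2 against 3 libraries can give.

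ITGB1 made up 79.9% ± 1.11 of the beta total with ascorbic acid and 82.2% ± 0.508 in controls. ITGAV was the largest part of the alpha total, with 31.5% ± 2.71 and 34.3% ± 0.126 in controls. The part of ITGA4 was 5.37 and 4.55% in treated libraries, against 2.87, 3.05 and 3.04% in controls. In the cadherin total, CDH2 made up 64.4 and 63.6% with ascorbic acid, against 72.4, 70.0 and 70.1% in controls, and CDH3 1.39 and 1.58%, against 0.744, 0.282 and 0.459% in controls. For ITGB1, ITGA4, CDH2 and CDH3 the groups did not overlap, each with p = 0.2 in a two-sided exact permutation test, the smallest possible here. The same was true of ITGAV (29.6 and 33.4% with ascorbic acid, against 34.2, 34.4 and 34.4% in controls). It was also true of most other shares in each of the totals, so it is not particular to these genes. These parts sum to 100% within a total, so they do not move independently.

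**Figure D4:**
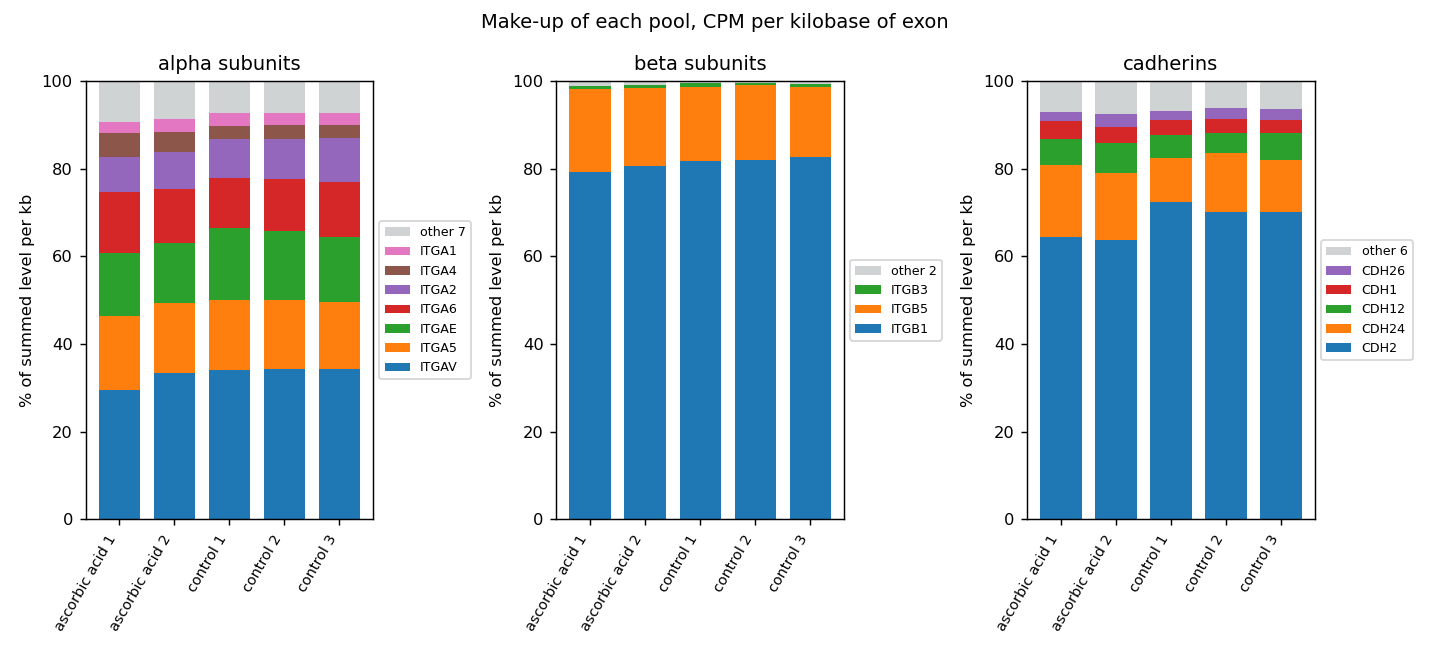
Share of the summed level per kilobase (% on the y axis) held by each gene in the 5 libraries (x axis), for alpha subunits, beta subunits and cadherins. ITGB1 makes up 79.1 to 80.7% of the beta total in treated libraries and 81.8 to 82.8% in controls, and CDH2 63.6 to 64.4% of the cadherin total in treated libraries and 70.0 to 72.4% in controls.

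The genes around the receptors were read from 5 lists. Among integrin ligand genes, 39 were tested: 16 rose, 2 fell and 21 were not called, and the median log2 fold change was 0.31. Thus 46.2% were called and 41.0% were higher, where 14.3% of all genes tested were called, 8.53% higher and 5.76% lower. The collagen genes COL3A1 (1.28 ± 0.12), COL6A1 (0.64 ± 0.07) and COL6A2 (0.68 ± 0.08) rose, while COL4A2 (-0.17 ± 0.05) and LAMC1 (-0.14 ± 0.04), which encode basement membrane chains, fell. Other basement membrane genes on the list rose, namely LAMA2 (1.47 ± 0.19), LAMC3 (0.94 ± 0.12), HSPG2 (0.45 ± 0.10), LAMA4 (0.43 ± 0.07), LAMB2 (0.38 ± 0.06), LAMB1 (0.33 ± 0.05) and LAMA3 (0.25 ± 0.07). The calls of COL4A2 and LAMC1 each ended in 9 of 18 alternatives, 4 of them a library left out (COL4A2 -0.18 to -0.13 and LAMC1 -0.15 to -0.13 in those). HSPG2 was not called without ascorbic acid replicate 1 (0.36), nor LAMA3 without ascorbic acid replicate 2 (0.19) or control replicate 1 (0.21). Of 12 fibroblast markers FAP was at 0 and 7, FAP included, were below 1 CPM in every library. The summed level of the 12 was 37.9 to 41.5 CPM with ascorbic acid and 20.8 to 22.6 CPM in controls. The markers include COL3A1, named above among the ligand genes, so their sum is not separate from the ligand values. The part of fibroblasts or their programmes in the ligand values was not tested. FN1, the fibronectin bound by the products of ITGA4 and ITGA5, had 82.1 and 83.1 CPM with ascorbic acid, against 65.0, 62.6 and 63.3 CPM in controls (0.38 ± 0.05, edgeR adjusted p = 8.35e-06). VCAM1, the cell surface ligand of ITGA4 receptors, had 0 and 2 counts in treated libraries and 1, 0 and 0 in controls. NPNT, the ligand of ITGA8 receptors, rose by 0.46 ± 0.16 (edgeR adjusted p = 0.0474). The NPNT call ended with DESeq2 (0.45, adjusted p = 0.161), cyclic loess (0.32, 0.224) and every library left out except control 3 (0.36 to 0.53 in those 4).

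Of 41 tested adhesion adaptors, 10 rose, 0 fell and 31 were not called (median 0.06). The adaptors called higher were 24.4%, where 8.53% of all genes tested were higher and 5.76% lower. The actin-linking filamin genes FLNC (0.47 ± 0.07) and FLNA (0.22 ± 0.05) and the parvin gene PARVA (0.27 ± 0.06), whose product joins integrin-linked kinase to actin, rose with edgeR adjusted p up to 0.00345. FLNA was not called without ascorbic acid replicate 1 (0.14, adjusted p = 0.0595). The integrin activator genes TLN1 (0.04 ± 0.05) and FERMT2 (-0.12 ± 0.05) did not pass, while FERMT1 rose (0.94 ± 0.25, edgeR adjusted p = 0.00995). FERMT1 had 2.04 and 2.08 CPM with ascorbic acid, against 1.08, 1.42 and 0.693 CPM in controls. Its call ended in 4 of 17 alternatives, among them without ascorbic acid replicate 2 (0.92).

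Catenins and junction partners gave 3 that rose, 1 that fell and 20 not called of 24 tested (median 0.02), and the 16.7% called are close to the 14.3% of all genes. The catenin genes CTNNB1 (-0.08 ± 0.04) and CTNNA1 (-0.08 ± 0.05) did not pass, EPCAM (1.80 ± 0.42), PLEKHA7 (0.33 ± 0.11) and PTPRF (0.14 ± 0.05) rose, and NECTIN3 (-0.21 ± 0.06) fell. Those of PLEKHA7 and PTPRF each ended in 9 of 18 alternatives, DESeq2 among them. Without ascorbic acid replicate 1, PLEKHA7 was at 0.25 (adjusted p = 0.304), PTPRF at 0.09 (0.306) and NECTIN3 at -0.14 (0.220), and EPCAM was not called without ascorbic acid replicate 2 (1.66, 0.0573). Leaving out a control also ended the calls of PLEKHA7 (control 2 or 3), PTPRF and NECTIN3 (control 1 or 2). EPCAM is an epithelial adhesion molecule, and of 12 epithelial markers 10 were below 1 CPM in every library, KRT5 among them at 0, while their summed level, mostly KRT8 and KRT18, was 45.4 to 48.6 CPM with ascorbic acid and 31.5 to 35.0 CPM in controls. All 4 epithelial markers tested rose, with a median log2 fold change of 1.64 and a range of 0.25 to 1.80. EPCAM itself is 1 of these 4, and the other listed markers were too low to test. The part of epithelial cells or programmes in the values of CDH1, CDH3 and EPCAM, which epithelia also express, was not tested. Of 20 listed regulators of the switch between E-cadherin and N-cadherin, 14 were tested, of which 2 rose, 1 fell and 11 were not called (median -0.05). Over all genes 14.3% were called, 8.53% higher and 5.76% lower. SNAI2, a repressor of CDH1, had 89.4 and 95.3 CPM in treated libraries, against 74.3, 73.4 and 70.7 CPM in controls (0.34 ± 0.05, edgeR adjusted p = 3.62e-05). FOXC2 rose by 0.77 ± 0.24, GRHL1, an epithelial transcription factor gene, fell by 0.42 on the log2 scale, and ZEB1 had -0.21 ± 0.08 and did not pass. The FOXC2 call ended in 5 of 17 alternatives, among them DESeq2 (0.75, adjusted p = 0.118), without ascorbic acid replicate 2 (0.50, 0.339) and without control replicate 1 (0.65, 0.142). The GRHL1 call ended in 7 of 18, among them DESeq2 (-0.44, 0.0809), without ascorbic acid replicate 1 (-0.27, 0.329) and without control replicate 2 or 3 (-0.38 in both).

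The wider cadherin superfamily had 30 tested genes, of which 8 rose, 1 fell and 21 were not called (median 0.09). Thus 30.0% were called and 26.7% were higher, where 14.3% of all genes tested were called, 8.53% higher and 5.76% lower. The planar polarity cadherin genes DCHS1 (1.04 ± 0.19) and CELSR1 (0.24 ± 0.07) and the protocadherin gene PCDH18 (0.48 ± 0.10) rose, and FAT3 fell (-0.31 ± 0.08). CELSR1 was not called without either treated library or without control 1 (0.17 to 0.25), nor FAT3 without ascorbic acid replicate 1 (-0.29, adjusted p = 0.0710).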

How the data were processed

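RNA-seq counts of reads per gene symbol were analysed as deposited by the authors, with no normalisation, for 2 ascorbic acid and 3 control libraries. The submitters' processing notes name the build hg38 (GRCh38), Trimmomatic 0.39 for trimming, STAR, featureCounts and also DESeq2. Annotation, strand setting and the handling of reads with several loci or genes: not given in the sources used here. Hence overlapping genes, antisense genes and close paralogs may share reads. Columns were matched to samples by name, taking "vc" for vitamin C and "con" for control. Within a group, libraries differed beyond counting error (chi-square per degree of freedom 3.81 to 6.85) and were kept apart.

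Genes were filtered with filterByExpr, scaled with TMM factors and tested with edgeR 4.0.16 in R 4.3.3 (robust glmQLFit, glmQLFTest, two-sided) over 15271 genes without covariates, at an adjusted p of 0.05. Standard errors are the log2 fold change over the root of F. Lengths, positions and GC came from GENCODE release 29, to which 26168 of 28278 symbols matched. Alternatives were DESeq2 1.42.0, limma-voom (limma 3.58.1), other scalings and filters, the replicate number as a block, a test against a fold of 1.2, halved counts, cyclic loess, GC and length trends removed (mgcv 1.9.3) and each library left out. Exact permutation tests used scipy 1.17.1.

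All 30 members are reported. Called members have every library's value. Of each list, up to 3 called genes in each direction by smallest p are named, with direct ligands, partners and regulators of members. The members and lists were chosen with earlier results of these data known.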

Additional observations from a re-analysis of the deposited data

How the results depend on the processing

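Under 18 alternatives, ITGA4 was called in 18, CDH3 in 16 of 17, CDH24 in 12 of 18 and CDH23 in 7 of 17. The count of 4 members higher became 2 with DESeq2, the replicate block, a fold of 1.2 or cyclic loess (ITGA4 and CDH3 each time), 7 with GC and length trends removed, 8 with library totals, 9 with halved counts, and 2 to 8 with a library left out (8 without control replicate 3). The count of 0 members lower became 1 (CDH2) with DESeq2 size factors or GC and length trends removed. Same-numbered libraries of the groups were not shown to be paired (correlation of their differences 0.09 over 10585 genes), so the replicate number names a library only. Near-zero values changed sign: CDH26 (0.025 with library totals, 0.016 with the replicate block, -0.25 to 0.19 with a library left out), ITGA1 (-0.038 with the block, -0.016 with cyclic loess, -0.12 to 0.15 with a library left out), ITGA11 (-0.17, -0.035 and -0.19 to 0.57 in the same order), ITGA8 (-0.030 to 0.24 with a library left out), ITGAV (-0.17 to 0.051) and ITGB3 (-0.086 with cyclic loess, -0.16 to 0.37 with a library left out).

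List genes called higher were 39, and 25 with DESeq2, 10 against a fold of 1.2 and 22 to 38 with a library left out. Those called lower were 5, and 1 with library totals, 3 with the 5 CPM filter, 0 against a fold of 1.2, 13 with GC and length trends removed and 1 to 6 with a library left out. Over all genes, 1303 higher and 879 lower became 806 and 906 with DESeq2, 275 and 11 against a fold of 1.2, 1712 and 389 with library totals, 1408 and 617 with upper-quartile factors, 1100 and 542 with the 5 CPM filter, 928 and 519 with cyclic loess, 1673 and 1420 with GC and length trends removed, and 790 to 1279 and 335 to 768 with a library left out. No scaling moved the median of all genes by over 0.1.

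With raw CPM in place of length-scaled levels, ITGAV was 35.7% of the alpha total in controls, ITGB1 78.6 and 81.1% of the beta total in treated and control libraries, CDH2 60.5 and 67.4% and CDH3, in treated libraries, 1.77% of the cadherin total. With the longest transcript as length, ITGA4 was 6.87 and 4.18%, ITGAV 27.0 and 29.8%, ITGB1 81.3 and 83.4% and CDH2 62.0 and 69.0%. Counts from 2 to 3 libraries a group limit what can be called below about 1 CPM, where the median standard error over all genes was 0.42 on the log2 scale.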

Other observations

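Among the integrin subunits of leukocytes, ITGAL, ITGAM, ITGAX, ITGB2 and ITGB7 had too few counts to be members or to be tested, and these 5 were singled out after their values were seen. Together they had 16 and 14 counts in the ascorbic acid libraries, against 1, 0 and 2 in the controls, so that 90.9% of their 33 counts fell in the treated libraries, which hold 40.7% of all counts. ITGAL had 6 and 6 counts with ascorbic acid, against 0, 0 and 2 in controls, ITGB2 2 and 4 against 0 in each control, and ITGAX 6 and 0 against 1, 0 and 0. Over all 3519 genes with the same range of total counts (2 to 14), 46.5% of counts fell in the treated libraries. PTPRC, a marker of all leukocytes, had 0 counts in both treated libraries and 2, 0 and 0 in controls, and CD3E was at 0 in every library. Over the 12 haematopoietic markers, the summed level was 85.4 to 92.7 CPM in treated libraries and 76.6 to 81.2 CPM in controls, mostly LCP1. Of the 12, 6 were tested: 1 was called higher and 0 lower (16.7% called, where 14.3% of all genes tested were). Their log2 fold changes ran from -0.13 to 1.21, with 5 above 0 and 1 below. Both treated libraries lay above all controls in 4 of the 6 (22.6% of all genes tested). With counts as low as those of the 5 subunits and mates counted separately, a value of 2 may be a single fragment, and no test was made of these subunits. Among subunits of leukocytes with more counts, ITGAD and ITGAE did not show this split, while ITGA4, whose product can pair with that of ITGB7, rose as given above. ITGAD, which the choice of members leaves out, had 33 and 23 counts with ascorbic acid, against 47, 22 and 28 in controls (log2 fold change -0.29 ± 0.34, edgeR adjusted p = 0.637), and ITGAE had -0.09 ± 0.07. ZNF740, on the opposite strand, overlaps 42.1% of the exon length of ITGB7.

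The other 13 family genes under 20 counts had 10 and 6 counts in the treated libraries and 12, 8 and 11 in the controls. Because the 5 leukocyte genes were set apart after their values were seen, the difference between the 2 sets is no check on the split. The 13 include CDH6, the K-cadherin of developing kidney, and CDH16, the kidney cadherin, both at 0 in every library, and CDH11, a mesenchymal cadherin, with 0 counts in both treated libraries and 4, 0 and 6 in controls. ITGB6, the epithelial beta subunit that activates latent TGF-beta, was also at 0 in all 5 libraries.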
